A study of Homo sapiens with 7 samples.

Results

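The carriers of large neutral amino acids are the membrane proteins that bring leucine, phenylalanine, tyrosine and similar amino acids into cells, and 6 genes were taken for them: SLC7A5, SLC3A2, SLC43A1, SLC43A2, SLC7A8 and SLC7A6. A peak was assigned to a gene when its centre lay inside the gene's annotated span on GRCh38 or within 10 kb of it. By this rule 48 of 37164 peaks in the 6 peak lists belonged to the 6 genes, out of 20037 protein-coding genes. The samples were DLD-1 cells, an established human colon adenocarcinoma line, infected with a retrovirus for MycER, a MYC protein that 4-hydroxytamoxifen activates. ATF4 was immunoprecipitated from 2 vehicle-treated control samples and from 2 samples after 8 hr with 500 nM of the inducer, and MYC from 2 samples after the same 8 hr. All groups carry MycER, no group had the inducer without it, and the labels do not say whether the infected line is a clone. One IgG sample (n = 1) is described as activated and has no list of its own here. Nothing in the labels says that replicates are separate cultures, so the spread between them may be technical.

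SLC7A5 (LAT1) is the main leucine importer of many tumour cells and exchanges intracellular glutamine for large neutral amino acids. It works only when joined to a glycoprotein heavy chain, CD98, encoded by SLC3A2, which carries it to the cell surface. SLC7A8 (LAT2) and SLC7A6 (y+LAT2, which also exchanges cationic amino acids) are other light chains of the same heavy chain. SLC43A1 (LAT3) and SLC43A2 (LAT4) are carriers of another family that need no heavy chain and let the amino acids pass down their gradient. Leucine that enters the cell is a signal for the growth kinase complex mTORC1. ATF4 is the transcription factor of the amino acid response and pairs with C/EBP proteins on sites with the letters TGATGNAA, and MYC binds E-boxes with the letters CACGTG together with MAX.

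Depth, read from the steps between low values, was 21.05 to 24.95 M tags in the replicate 1 libraries and 49.75 to 50.3 M in the replicate 2 libraries. Values below are the authors' normalized tag counts, tags in a peak per 10 M tags of the library, called tags. A list holds only called peaks, so a gene without a peak has no listed value rather than a value of 0. The lowest value listed was 4.46 and 2.98 tags in control ATF4 replicates 1 and 2, 3.21 and 2.81 in activated ATF4, and 3.8 and 2.39 in MYC. As a check of the cell type, MYC regions called in both libraries lay at 6 of 13 colon epithelial marker genes (CDX1, CDX2, KRT8, KRT18, CDH1 and LGR5), at 1 of 7 blood cell genes and at 2 of 7 fibroblast genes, against 25.2% of all protein-coding genes. VIL1, EPCAM, KRT19, KRT20, CDH17, ASCL2 and HNF4A had none, and binding does not measure expression.

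The 6 genes differed in which of the 2 factors was found at them. SLC7A5, SLC43A1 and SLC3A2 had an ATF4 region in both activated libraries, which is 3 of 6 genes against 1.4% of protein-coding genes. Each of these 3 regions overlapped a MYC region called in both MYC libraries. Over the series this was so for 65 of 352 ATF4 regions called in both activated libraries (18.5%). SLC43A2 and SLC7A8 had MYC regions in both libraries and no ATF4 peak in activated cells, and SLC7A6 had MYC peaks in replicate 2 alone. In all, 5 of 6 genes had a MYC region called in both libraries, against 25.2% of genes. The 6 genes were chosen with earlier results of these data known, so shares set against all genes or regions are descriptions and not tests. The 6 gene spans are 31.2 to 60.8 kb long and the median protein-coding gene is 24.1 kb, and a longer span takes in more peaks. The map of peaks along the 6 genes shows these positions.

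**Figure D1:**
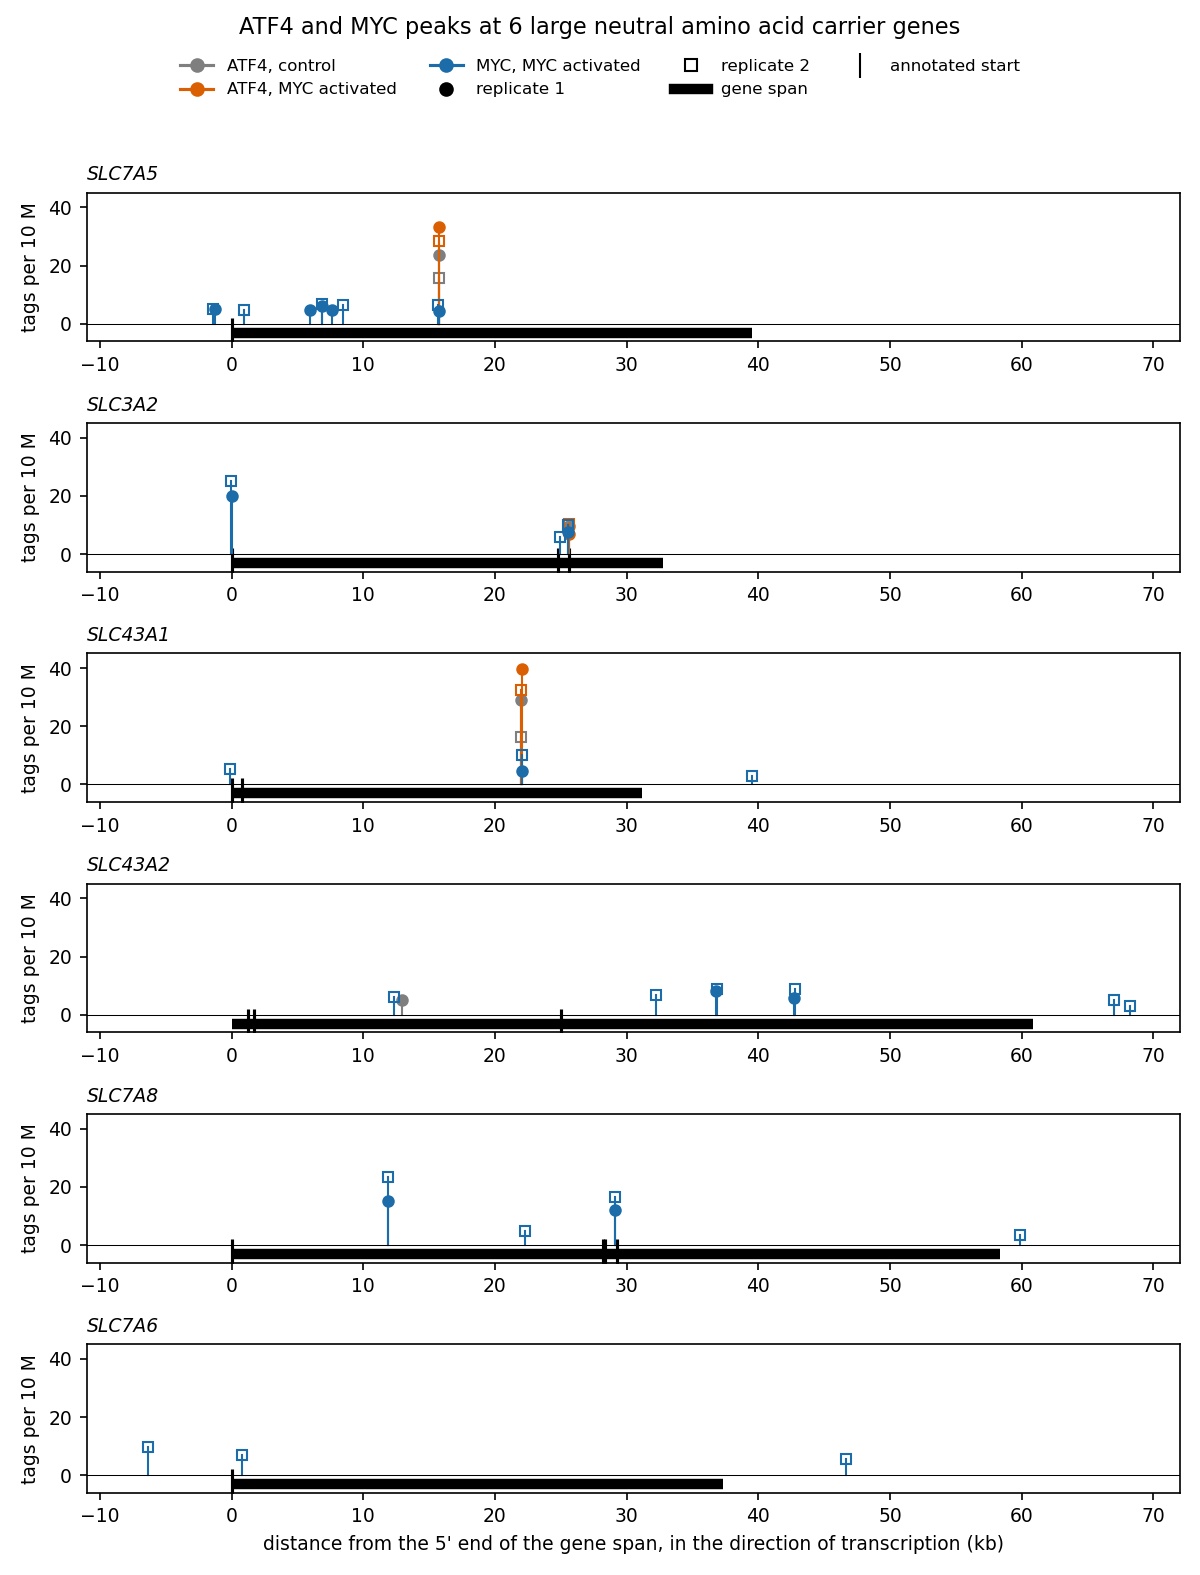
Peaks within 10 kb of each gene, with distance from the 5' end of the gene span in kb on the x axis and normalized tag count per 10 M tags on the y axis. Grey stands for ATF4 in control, orange for ATF4 after MYC activation and blue for MYC, filled circles are replicate 1 and open squares replicate 2, thick bars are gene spans and vertical ticks annotated starts. The tall ATF4 peaks of SLC7A5 (15.9 to 33.3 tags) and SLC43A1 (16.3 to 39.7 tags) lie far inside the genes, and the tall MYC peaks belong to SLC3A2 and SLC7A8.

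Annotated start regions under a peak called in both libraries of a group are shown, because at least part of the letters under those peaks could be read there. Sequences are RefSeq's, from GRCh38.p14, and 14 windows of 250 bases before and 50 bases after an annotated start matched the 6 genes. Of these windows, 5 overlapped a peak, and the 2 not shown in full, at another inner start of SLC3A2 and at the outermost start of SLC43A1, did so in MYC replicate 2 only. The stretches are the 250 bases before the start, 5' to 3' on the strand of the gene, with any CACGTG or TGATGNAA (either strand) in capitals. At both SLC3A2 starts the peaks reach past the end of the stretch, and at the inner start the TGATGNAA match lies beyond it. The first belongs to the outermost start of SLC3A2, which had the strongest MYC region of the 6 genes. The second belongs to an inner start of SLC3A2 where ATF4 and MYC met, and the third to an inner start of SLC7A8 under a MYC region.
SLC3A2, outermost start, chr11:62855859-62856108, plus strand: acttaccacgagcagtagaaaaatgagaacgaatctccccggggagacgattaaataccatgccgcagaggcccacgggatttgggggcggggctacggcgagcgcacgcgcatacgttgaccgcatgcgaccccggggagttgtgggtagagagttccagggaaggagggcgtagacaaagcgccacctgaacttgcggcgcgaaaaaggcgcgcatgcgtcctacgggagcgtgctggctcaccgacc
SLC3A2, inner start, chr11:62881449-62881698, plus strand: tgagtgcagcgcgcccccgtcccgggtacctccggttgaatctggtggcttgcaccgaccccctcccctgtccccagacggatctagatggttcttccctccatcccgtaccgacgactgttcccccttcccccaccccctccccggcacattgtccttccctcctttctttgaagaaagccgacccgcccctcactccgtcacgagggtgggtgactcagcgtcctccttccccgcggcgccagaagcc
SLC7A8, inner start, chr14:23154394-23154643, minus strand: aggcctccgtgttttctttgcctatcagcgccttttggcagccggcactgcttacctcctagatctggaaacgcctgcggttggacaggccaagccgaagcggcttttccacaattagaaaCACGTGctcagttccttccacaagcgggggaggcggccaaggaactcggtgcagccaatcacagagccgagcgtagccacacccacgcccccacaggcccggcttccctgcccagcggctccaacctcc

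The motif matches of the 6 genes are shown as stretches of 30 bases, 5' to 3' on the strand of the gene, because each of the peaks named with them can be set against a match. Capitals mark TGATGNAA, read here on the opposite strand, in SLC3A2 and CACGTG in the others.
SLC3A2, inner start, chr11:62881719-62881748, plus strand: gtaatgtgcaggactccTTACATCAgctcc
SLC7A8, inner start, chr14:23154504-23154533, minus strand: acaattagaaaCACGTGctcagttccttcc
SLC43A1, outermost start, chr11:57515796-57515825, minus strand: agcgggcgagtCACGTGcgcgtgaaactcg
SLC7A5, its start, chr16:87869619-87869648, minus strand: gccggacgacgCACGTGctccgagctgggc

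The TGATGNAA match of SLC3A2 has its first base at position 38 from its inner start, on the transcribed side, at 62881736 to 62881743, and was covered by the ATF4 peak of each of the 3 libraries that had one. Its centre lay 8 to 10 bp from the ATF4 peak centres and 76 to 96 bp from the MYC peak centres. Such a match was held by 3.62% of all 35116 promoter windows and by 17 of the 28 windows (60.7%) that overlapped an ATF4 region called in both activated libraries. The CACGTG of SLC7A8 has its first base at -129 from its inner start (the start is 1) and lay 38 and 32 bp from the MYC peak centres of replicates 1 and 2. That of SLC43A1, at -112 from its outermost start, lay 30 bp from a MYC peak centre of replicate 2. That of SLC7A5, at -130 from its only annotated start, had no ATF4 or MYC peak over its window. CACGTG was held by 7.26% of all promoter windows and by 267 of 1154 windows (23.1%) that overlapped a MYC region called in both libraries. The outermost start of SLC3A2 held neither motif in its window, which ends at 62856158. The MYC region there runs on to 62856224, and that part was not searched. These matches describe letters and are not tests of binding, and windows of 1 gene can overlap each other.

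ATF4 was strongest inside SLC43A1, which encodes the uniporter LAT3. The region (chromosome 11, 57493586 to 57493798) lies 21.2 kb downstream of the nearest annotated start. It held 29.0 and 16.3 tags in control replicates 1 and 2 and 39.7 and 32.6 tags in activated replicates 1 and 2. Both activated libraries were above both control libraries, which was so at 77 of the 105 common ATF4 regions, those called in each of the 4 libraries (73.3%). These values rest on 65, 82, 99 and 162 tags. The exact 95% Poisson intervals, which cover counting error alone, were 22.4 to 37.0 and 32.2 to 48.3 tags in replicate 1 and 13.0 to 20.2 and 27.7 to 38.0 tags in replicate 2. Control and activated intervals thus overlapped in replicate 1 and did not in replicate 2. The intervals of the control libraries did not overlap each other either, so libraries of the same group differed by more than counting error. The peak ranked 28th and 10th in the control lists and 21st and 4th in the activated lists, which have 916, 1579, 1270 and 2231 peaks, and its fold over a background library, as deposited by the authors without naming that library, was 35.3 to 85.9.

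The ATF4 region of SLC7A5 came next, and its levels had the same order among libraries. It lies inside the gene (chromosome 16, 87853633 to 87853849), 15.8 kb downstream of the start, and ends 47 bp before the annotated microRNA gene MIR11401. It held 23.7 and 15.9 tags in control replicates 1 and 2 and 33.3 and 28.3 tags in activated replicates 1 and 2, from 53, 80, 83 and 141 tags. Again both activated libraries exceeded both control libraries. In replicate 1 the counting intervals of 17.7 to 30.9 and 26.5 to 41.2 tags overlapped, and in replicate 2 those of 12.6 to 19.8 and 23.9 to 33.4 tags did not. Fold over background was 17.2 to 36.0. Whether this position or that of SLC43A1 is exonic or intronic was not analysed here, and their sequences were not used here.

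Whether MYC activation changed ATF4 at these sites was tested by limma on log2(tags + 1) over all 105 common regions. SLC43A1 had 22.65 ± 8.98 tags in control and 36.15 ± 5.02 tags after activation (SD, n = 2 in each), and its log2 change was 0.70 (standard error 0.32, limma adjusted p = 0.0721). SLC7A5 had 19.8 ± 5.52 and 30.8 ± 3.54 tags (SD, n = 2 in each), and its log2 change was 0.63 (standard error 0.31, limma adjusted p = 0.0865). Neither passed the threshold of 0.05, which 39 of the 105 regions (37.1%) passed as higher and 0 as lower, and 57 and 0 at an unadjusted p under 0.05. The unadjusted limma p was 0.0316 for SLC43A1 and 0.0449 for SLC7A5. Without limma's mean-variance trend both passed, with limma adjusted p of 0.0257 and 0.0423. A count test (edgeR), left out for the reason given with the processing, put SLC43A1 just past the threshold, but not SLC7A5. The call at SLC43A1 thus depends on the test chosen. Calls by limma were 0 higher and 9 lower once libraries were centred on their medians, which takes away a rise shared by most regions. Fits without 1 of the 4 ATF4 libraries leave a lone library in a group and cannot decide the calls. A two-sided exact permutation test over the 4 libraries gave p = 0.333 for each, the smallest that 2 against 2 allows.

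The size of the change at both genes was close to that of a typical common region. Within each replicate number the activated library held more tags than the control at both genes, as at 82 of the 105 regions (78.1%). Within replicate 1 the log2 change was 0.44 at SLC43A1 and 0.47 at SLC7A5, beside a median of 0.37 over the 105 regions. Within replicate 2 it was 0.96 and 0.79, beside a median of 0.74. By size of change SLC43A1 ranked 35th and SLC7A5 43rd of 105, while by mean tags in activated cells they ranked 3rd and 5th. Centring each library on its median over these regions moves the median change from 0.54 to -0.11. It left log2 changes of 0.054 at SLC43A1 and -0.011 at SLC7A5 (standard error 0.22 for each). Both are smaller than their standard errors, so the turn of direction at SLC7A5 is not settled. Leaving out control replicate 2 lowered the changes to 0.30 and 0.36, and leaving out control replicate 1 raised them to 1.10 and 0.91, with no adjusted p under the threshold.

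**Figure D2:**
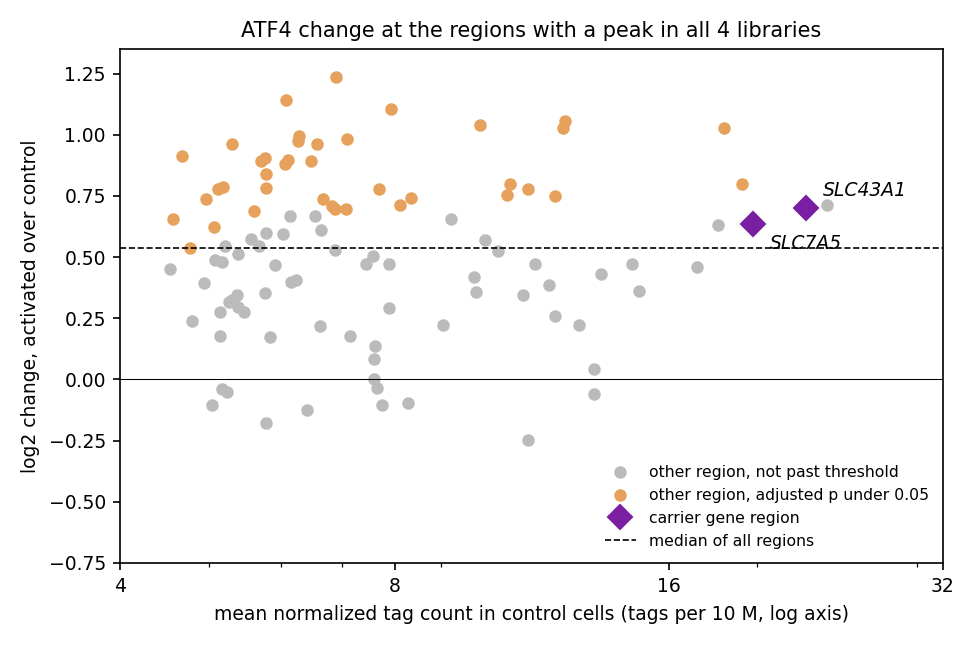
Log2 change of ATF4 tags from control to activated cells on the y axis against mean control tags on a log x axis, for the 105 common ATF4 regions. Orange points passed limma's adjusted p threshold of 0.05, purple diamonds are SLC43A1 (0.70) and SLC7A5 (0.63), and the dashed line is the median of 0.54. Both carrier regions lie among those with the most tags and a little above the median change.

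SLC3A2, the gene of the shared heavy chain, had a weaker ATF4 region at its inner start (chromosome 11, 62881630 to 62881834), with its centre 33 bp on the transcribed side. It held 9.82 tags in control replicate 1, had no peak in control replicate 2, and held 6.81 and 10.4 tags in activated replicates 1 and 2. Control replicate 1 was thus above activated replicate 1 and the groups did not separate. Replicate 2 went the other way, with no peak listed in control, where the lowest listed value was 2.98 tags. The 10.4 tags of activated replicate 2 had a counting interval of 7.81 to 13.7. The counting intervals in replicate 1, from 22 and 17 tags, were 6.16 to 14.9 in control and 3.97 to 10.9 after activation. Because a library lacked a listed value, the region entered no test. Fold over background was 7.38 to 10.6 in the 3 libraries. A region in at least 3 of the 4 ATF4 libraries was found at 0.843% of protein-coding genes.

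The other genes of the group had little or no ATF4. SLC43A2, which encodes the uniporter LAT4, had 1 ATF4 peak, in control replicate 1 only (4.91 tags from 11 tags, 4.25-fold over background, rank 676 of 916). The light chain genes SLC7A8 and SLC7A6 had no ATF4 peak in any of the 4 libraries. In replicate 1, 4 of the 6 genes had an ATF4 peak in control (2.95% of genes) and 3 in activated cells (4.28%). In replicate 2 the counts were 2 (5.37%) and 3 (7.76%). Both control libraries had a region at 2 of the 6 genes, against 0.524% of genes, and these 2 were SLC7A5 and SLC43A1.

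**Figure D3:**
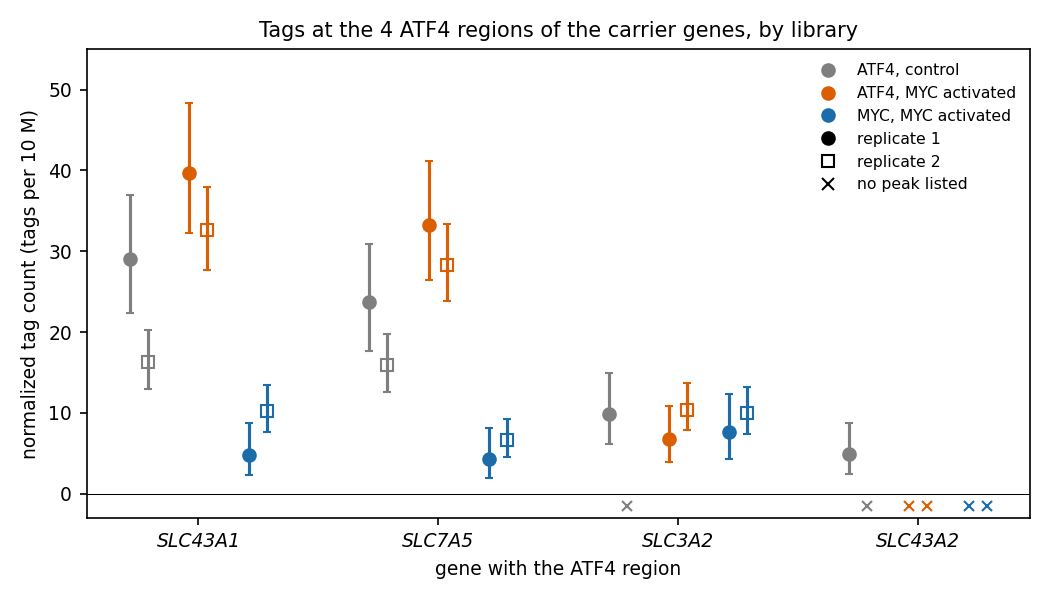
Normalized tag count per 10 M tags (y axis) at the 4 ATF4 regions of the carrier genes (x axis), with 1 point per library and exact 95% Poisson counting intervals as bars. Circles are replicate 1, squares replicate 2, and a cross under the axis means that no peak was listed, with MYC shown where its region overlaps the ATF4 region. At SLC43A1 and SLC7A5 the activated ATF4 libraries are above the control libraries and far above MYC, and at SLC3A2 all listed values lie between 6.81 and 10.4.

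In activated cells, the only ones with MYC samples, MYC was most abundant at SLC3A2 and SLC7A8. Whether its regions were present before activation is not known. The region at the outermost start of SLC3A2 (chromosome 11, 62856017 to 62856224, centre 12 bp from the start) held 20.0 and 25.1 tags in replicates 1 and 2 and ranked 98th of 6313 MYC regions called in both libraries. It also reaches into the promoter window of SNHG1, a noncoding RNA gene that begins on the other strand at 62855885, so the peak cannot be given to 1 of the genes. At the inner start of SLC3A2, where ATF4 lay, MYC held 7.61 and 9.98 tags, and a further peak at another start had 5.99 tags in replicate 2 only. At SLC7A8 a region inside the gene (chromosome 14, 23171711 to 23171887), 11.9 kb downstream of the outermost start, held 15.2 and 23.4 tags and ranked 191st. The region at an inner start of SLC7A8 (23154464 to 23154640, centre 159 bp before it) held 11.9 and 16.4 tags and ranked 654th, and no peak lay at the outermost start. The 4 values of these 2 regions exceed the medians over the 6313 regions, which were 6.18 tags in replicate 1 and 8.98 in replicate 2. A further 2 peaks of SLC7A8, of 4.99 and 3.59 tags, were called in replicate 2 only.

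MYC was weaker and more spread out at SLC7A5. Regions called in both libraries lay 1.32 kb upstream of its start (chromosome 16, 87870681 to 87870982, 5.23 and 5.19 tags), 6.87 kb downstream (87862543 to 87862728, 6.18 and 6.79 tags) and at the ATF4 region 15.7 kb downstream (87853706 to 87853882, 4.28 and 6.59 tags). These ranked 5404th, 4104th and 5191st of 6313, so all 3 lie in the lower part of the list. A further 4 peaks of 4.75 to 6.39 tags inside the gene were each called in 1 library, 1 of them 0.931 kb from the start. SLC7A5 thus had 5 MYC peaks in each library, the most of the 6 genes in replicate 1 (SLC43A2 had 6 in replicate 2), without a strong one. SLC43A1 had 1 MYC region in both libraries, at its ATF4 region (chromosome 11, 57493562 to 57493738, 4.75 and 10.2 tags), and a peak at its outermost start in replicate 2 only (5.39 tags, from 27 tags).

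SLC43A2 had 2 MYC regions in both libraries, both inside the gene and 11.8 and 17.7 kb downstream of its innermost start (chromosome 17). They held 8.08 and 8.98 tags at 1593167 to 1593347 and 5.7 and 8.78 tags at 1587196 to 1587463. A further 4 peaks of 2.99 to 6.79 tags were called in replicate 2 only, 2 of them beyond the 3' end, 6195 and 7423 bp from the gene. Both of these also lay within 10 kb of PITPNA, and the one at 6195 bp (5.19 tags) lay over a promoter window of PITPNA. No MYC peak lay over any of the 3 annotated start windows of SLC43A2. SLC7A6 had no MYC peak in replicate 1 and 3 in replicate 2. Of these, 1 lay inside the gene 0.83 kb from its start (chromosome 16, 68265268 to 68265444, 6.99 tags). The other 2 lay outside the gene, 6315 and 9342 bp from it (9.58 and 5.79 tags), the latter over the promoter windows of SLC7A6OS and PRMT7. The peaks of 9.58 and 6.99 tags also lay within 10 kb of PLA2G15. A peak of the deeper MYC replicate 2 lay at 59.5% of protein-coding genes, against 29.7% for MYC replicate 1. A gene with a peak in replicate 2 alone is therefore common.

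Where both factors were found, their proportions differed among the 3 genes. Over the series 65 of 352 ATF4 regions called in both activated libraries (18.5%) overlapped such a MYC region. Among these 65, SLC43A1 ranked 1st and SLC7A5 3rd by mean ATF4 tags, but 36th and 53rd by mean MYC tags. ATF4 tags were 8.36 and 3.2 times the MYC tags in replicates 1 and 2 at SLC43A1 and 7.78 and 4.29 times at SLC7A5, and by the ratio of means these were the second and the first of the 65. At SLC3A2 the ratio was 0.895 and 1.04. Antibodies differ in efficiency, so a ratio between them orders regions and does not measure molecules. Along the direction of transcription, the MYC peak centre lay 44 and 43 bp beyond the ATF4 centre at SLC43A1 in replicates 1 and 2. It lay before the ATF4 centre at SLC7A5 (-39 and -53 bp) and at SLC3A2 (-87 and -68 bp). The median distance over the 65 regions was 72 bp in replicate 1 and 56 bp in replicate 2.

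**Figure D4:**
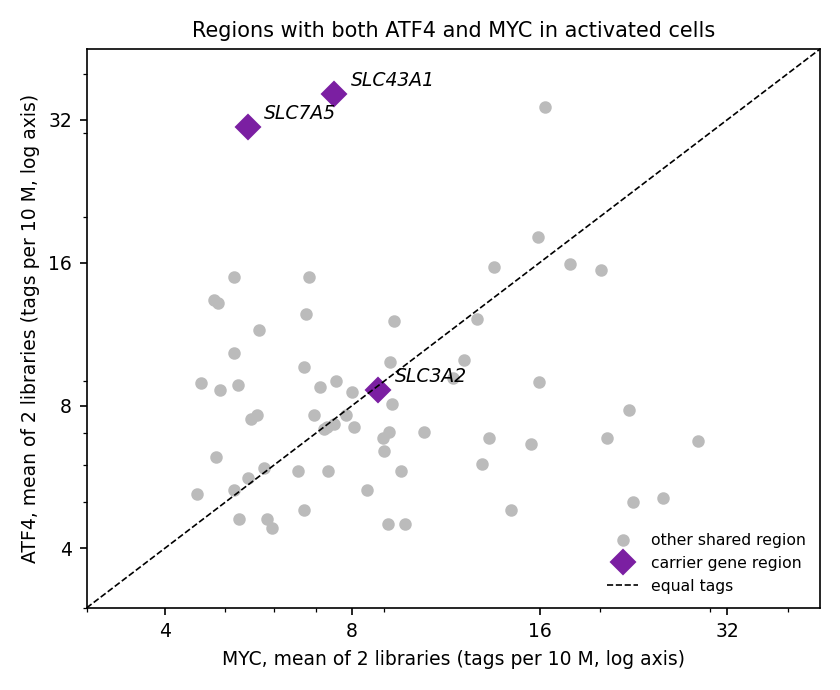
Mean ATF4 tags (y axis) against mean MYC tags (x axis), both on log axes and in tags per 10 M, at the 65 regions called for both factors in activated cells. Purple diamonds are the carrier gene regions and the dashed line marks equal tags. SLC43A1 (36.15 ATF4 and 7.475 MYC tags) and SLC7A5 (30.8 and 5.435) stand far above the line, and SLC3A2 (8.605 and 8.795) lies on it.

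Among the 105 common regions, those most like each carrier over the 4 ATF4 libraries, by Euclidean distance of log2(tags + 1), included the other carrier. For SLC7A5 the closest of 72 regions at other protein-coding genes were at TCP11L2 (distance 0.29), TBC1D16 (0.323) and SLC43A1 (0.424). For SLC43A1 they were at the stress hormone gene FGF21 with its neighbours FUT1 and IZUMO1 (0.411), at SLC7A5 (0.424) and at DDIT4, an inhibitor of mTORC1 signalling (0.426). Likeness here is mostly a like height of the peaks.

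Some other amino acid carriers also had ATF4 regions. Like the 6 genes, these carriers and the leucine genes below were chosen with earlier results known, so their counts are not tests. In activated cells 4 of 26 had one called in both libraries (SLC7A11, SLC38A1, SLC38A2 and SLC1A5), against 1.4% of all genes. A MYC region lay at 11 of 26, against 25.2%. At 2 of 26 (SLC7A11 and SLC38A1) the regions overlapped, against 0.304% of all genes and 3 of the 6 carriers of large neutral amino acids. Of their 2 common regions, that of SLC1A5, a glutamine carrier, rose from 6.25 and 9.14 to 11.2 and 16.7 tags. Its log2 change was 0.78 (limma adjusted p = 0.0315). As for all 39 regions called, this was lost with a replicate block (smallest limma adjusted p over the 105 regions 0.115) and with median centring. Centring takes away a rise shared by most regions, so that loss cannot tell a general rise from a difference of scale. Fits without 1 of the 4 ATF4 libraries leave a lone library in a group and cannot decide the call. The common region of SLC7A11, the cystine carrier, had 5.36 and 5.77 tags in control and 6.41 and 11.9 tags after activation (log2 change 0.58, limma adjusted p = 0.0728). Of 21 genes of leucine sensing and branched-chain amino acid use, 2 had an ATF4 region (SESN2, a leucine sensor, and MLST8, an mTORC1 subunit), against 1.4% of all genes. A MYC region lay at 7 of the 21, near the 25.2% of all genes. Overlapping regions lay at 0 of the 21 and a region in all 4 ATF4 libraries at 0, where the shares of all genes, 0.304% and 0.439%, leave few to be found among 21.

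The window of 10 kb bears on which peaks are counted. In replicate 2, a MYC peak 8375 bp from SLC43A1 (2.79 tags) lay just inside the window and within the gene RTN4RL2. Also just inside the window was the MYC peak 9342 bp from SLC7A6 (5.79 tags), of the same library. Just outside lay a MYC peak of replicate 2 at TIMM10, 15070 bp from SLC43A1 (4.59 tags), and a MYC region inside WDR74, 16546 bp from SLC3A2 in replicate 1 (10.9 tags) and 16555 bp in replicate 2 (31.5 tags). No ATF4 peak lay outside a carrier gene and within 10 kb of it. The nearest was 23050 bp beyond the 3' end of SLC7A5 (chromosome 16, 87806858 to 87807062), with no annotated gene closer than SLC7A5. It had 4.81 and 6.83 ATF4 tags in activated replicates 1 and 2 and no peak in either control library, and MYC had 5.23 and 9.38 tags there. The 4.81 tags of replicate 1 are close to the lowest value listed in control replicate 1 (4.46). The 6.83 tags of replicate 2 are well above the lowest value listed in control replicate 2 (2.98).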

How the data were processed

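Each of the 6 ATF4 and MYC samples has 1 peak list, called per library. Per the submitters' processing notes, Bowtie 0.12.9, HOMER and hg38 were used, with settings not given in the sources used here. The deposited normalized tag count is a signal, scaled by the authors to 10 M tags of each library. The authors also deposited a peak score, a focus ratio (a fraction), the fold over background and surroundings, a p-value for each, and the total tags, a whole-number count in replicate 1 and a scaled signal in replicate 2. Score, fraction and p-value were not used.

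Groups and replicate numbers came from the sample titles. The members and gene lists were chosen with earlier results of these data known. Peaks sharing 1 bp or more were joined as 1 region, and the strongest peak per library was kept. The 105 common regions were tested with limma 3.58.1 (trend, R 4.3.3), two-sided, with Benjamini-Hochberg adjustment over all of them. A count test (edgeR) of tags recovered from the normalized values, tried after seeing the data, was left out because the rounded values did not meet the criterion for treating them as counts. It put SLC43A1, but not SLC7A5, just past the threshold. The counting intervals above nonetheless use tags recovered from the normalized values for replicate 2. Tags behind each value were read from the deposited count (replicate 1) or from steps of the normalized value (replicate 2), where 100% of values under 10 lay within 0.1 of a whole tag. Gene spans and sequences were RefSeq's (GRCh38.p14). Named were the 6 genes, list genes with a region in all 4 ATF4 libraries, and the 3 most alike regions, and others after their values were seen. Alternatives covered pseudocount, filter, scaling, replicate block, trend, fold, overlap, window and leaving out each library.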

Additional observations from a re-analysis of the deposited data

How the results depend on the processing

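The number of common regions past limma's threshold was 39 (all higher). With libraries centred on their median it became 9, with 9 lower and 0 higher. At an unadjusted p under 0.05, centring gave 18 lower and 2 higher. It was 0 with a replicate block (unadjusted, 37 higher and 0 lower, smallest adjusted p 0.115). Without any one of the 4 ATF4 libraries it was 0 to 0 (unadjusted, 23 to 55 higher and 0 or 1 lower), where fewer samples leave the lone library assumed to vary like the other group. It was 34 to 46 under the other 7 settings. Without limma's trend both SLC7A5 and SLC43A1 passed (adjusted p 0.0423 and 0.0257). The cause was not tested. The log2 change at SLC7A5 turned to -0.011 with centring (standard error 0.22), so its sign there is not settled. Centring takes the same amount off the change of every region. With the replicate block, limma's adjusted p was 0.174 at SLC7A5 and 0.179 at SLC43A1, neither of which passed without it. The labels do not say that a replicate number marks a shared batch, but the number goes with depth and with the form of the deposited total tags in all groups, so a shared batch cannot be told apart from it. Deviations of same-numbered libraries correlated with r = 0.0976 over the 105 regions. The number of genes with an ATF4 region stayed at 3 under 6 alternatives, that with a MYC region was 5 or 6, and that of ATF4 regions overlapping MYC was 3, or 4 within 25 kb. Values in replicate 1 rest on fewer tags, and peaks under the lowest listed value of a library were not detectable there.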
